A study of Mus musculus with 87 samples.

Results

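The guanylate-binding proteins (Gbp) described here are 9 mouse genes, Gbp2, Gbp3, Gbp4, Gbp5, Gbp6, Gbp7, Gbp8, Gbp9 and Gbp10, chosen by symbol from the 48526 genes of a table of sorted-nucleus RNA-seq and from a matching single-nucleus RNA-seq table. Adult male and female wildtype C57BL/6J mice received 40 ng of interferon-γ (IFN-γ) or saline in 400 nL, injected into the ventral midbrain, the region that holds the dopamine neurons of the substantia nigra and ventral tegmental area. Nuclei were sorted on NeuN, a nuclear protein of mature neurons, so that NeuN+ wells hold mainly neurons and NeuN- wells mainly glia, and transcripts were counted by 3′ unique molecular identifiers (UMIs). The time course comprised 84 wells, 42 per fraction, with 6 IFN-γ wells per fraction at each of 6, 24, 48 and 72 h, 6 saline wells per fraction at 24 h and 4 at each other time. For single nuclei, 1 mouse injected with saline and 2 with IFN-γ were used at 48 h.

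Guanylate-binding proteins are large GTPases that are among the genes most strongly induced by IFN-γ in mouse cells. They assemble on the vacuoles and membranes of intracellular bacteria and parasites, disrupt them, and help to activate inflammasomes and the cell death that follows. Their transcription is driven through gamma-activated sites (GAS) and by interferon regulatory factors such as IRF1, which bind interferon-stimulated response elements (ISRE).

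The 9 genes lie in 2 clusters of the GRCm38 genome. Gbp5 (chr3:142493978-142522344), Gbp7 (chr3:142530342-142550149), Gbp3 (chr3:142560026-142573209) and Gbp2 (chr3:142620602-142638008) follow each other on the + strand of chromosome 3, with Gbp2b between Gbp3 and Gbp2. Gbp8 (chr5:105014150-105139540), Gbp9 (chr5:105077630-105139539), Gbp4 (chr5:105115767-105139586), Gbp10 (chr5:105215699-105239533) and Gbp6 (chr5:105270702-105293698) lie on the - strand of chromosome 5. The 250 bases upstream of the start sites of the 4 chromosome 3 members are shown because these are the measured members for which a RefSeq promoter window was at hand, and all 4 rose after IFN-γ; they are RefSeq sequences of GRCm38.p6, 5′ to 3′ on the + strand, with GAS motifs (TTCNNNGAA) and ISRE motifs (GAAANNGAAA, searched on both strands) in capitals.
Gbp5 chr3:142496684-142496933: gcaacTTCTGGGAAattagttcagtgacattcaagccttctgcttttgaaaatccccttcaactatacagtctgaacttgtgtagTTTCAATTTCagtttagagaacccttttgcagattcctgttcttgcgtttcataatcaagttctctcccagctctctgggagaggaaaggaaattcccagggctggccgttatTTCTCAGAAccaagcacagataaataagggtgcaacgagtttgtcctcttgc
Gbp7 chr3:142530086-142530335: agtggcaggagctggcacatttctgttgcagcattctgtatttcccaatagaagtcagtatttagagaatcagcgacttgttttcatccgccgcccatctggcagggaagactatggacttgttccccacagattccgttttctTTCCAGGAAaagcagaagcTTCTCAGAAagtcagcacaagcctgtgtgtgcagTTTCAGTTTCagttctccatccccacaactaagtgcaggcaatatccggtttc
Gbp3 chr3:142559794-142560043: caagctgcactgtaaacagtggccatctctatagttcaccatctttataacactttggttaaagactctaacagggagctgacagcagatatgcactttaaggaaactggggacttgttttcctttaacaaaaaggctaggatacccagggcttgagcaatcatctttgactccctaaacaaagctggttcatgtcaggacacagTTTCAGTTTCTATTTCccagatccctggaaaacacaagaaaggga
Gbp2 chr3:142620413-142620662: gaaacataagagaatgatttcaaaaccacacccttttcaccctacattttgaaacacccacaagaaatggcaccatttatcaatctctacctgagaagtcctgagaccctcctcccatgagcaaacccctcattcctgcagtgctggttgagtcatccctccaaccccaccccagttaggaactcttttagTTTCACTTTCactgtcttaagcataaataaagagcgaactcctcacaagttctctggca
All 4 windows held an ISRE. The Gbp7 ISRE lay 53 to 44 bases upstream of the start site, the Gbp2 ISRE 59 to 50 bases upstream and the Gbp5 ISRE 165 to 156 bases upstream. Gbp3 had a pair of overlapping ISRE, at 45 to 36 and 39 to 30 bases upstream, and neither motif in the window of its other RefSeq start site. Gbp5 and Gbp7 also held 2 GAS each, at 245 to 237 and 52 to 44 bases upstream for Gbp5 and at 106 to 98 and 87 to 79 bases upstream for Gbp7. Among 32851 RefSeq promoter windows of the same length, 7.02% held the GAS motif, 2.98% the ISRE motif and 0.332% both. A match is a string of letters in the window, and binding was not measured.

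Transcripts were recorded for 5 of the 9 genes and in effect not for the other 4. Over the 84 wells, Gbp7 had 3160 UMIs, Gbp2 had 2860, Gbp3 had 1042, Gbp5 had 925 and Gbp8 had 564. Gbp4, Gbp9 and Gbp10 had 0 UMIs in every well and Gbp6 had 1, in a NeuN+ IFN-γ well of 24 h. In 4699 single nuclei the UMIs were 781 for Gbp7, 372 for Gbp2, 358 for Gbp3, 167 for Gbp5 and 109 for Gbp8, and 0 for Gbp4, Gbp6, Gbp9 and Gbp10.

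**Figure D1:**
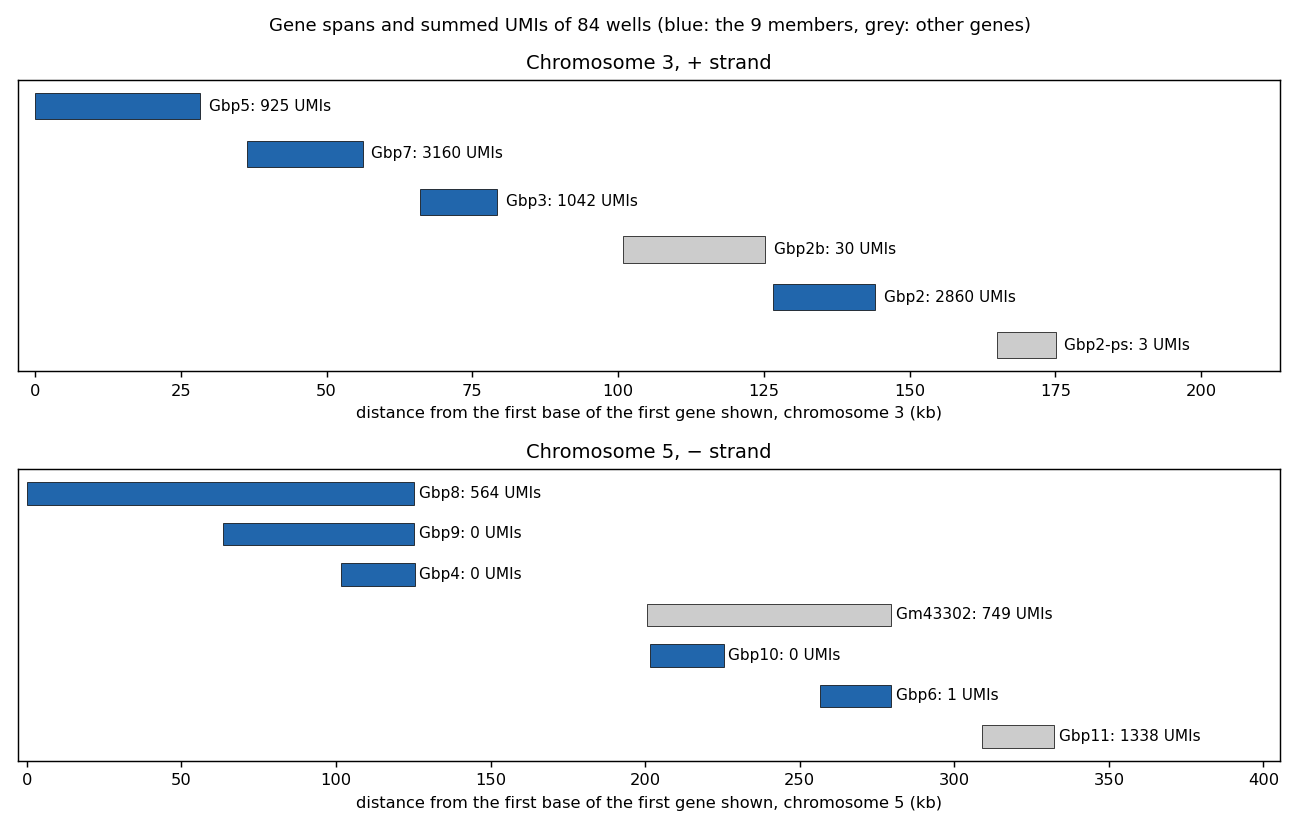
Spans of the Gbp genes on chromosomes 3 and 5, as distance in kb from the first gene shown, each with its UMIs summed over 84 wells. Blue bars are the 9 members and grey bars are neighbouring genes; the members with 0 or 1 UMI (Gbp4, Gbp6, Gbp9 and Gbp10) are those whose spans fall inside a longer gene of the same strand.

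The 4 genes without counts were those nested within another gene on the same strand. Gbp9 and Gbp4 fell 100% and 99.8% inside the span of Gbp8, and Gbp10 and Gbp6 fell 100% and 99.99% inside the span of Gm43302, another gene of the chromosome 5 cluster. The same held across the table. Of 407 protein-coding genes covered to at least 99% by another gene of the same strand, 382 (93.9%) had no count in any well, against 1364 of 8439 (16.2%) with no overlap and 85 of 485 (17.5%) covered only on the opposite strand. For nuclei, the counting kept only reads that aligned uniquely to 1 gene body, introns included. Whether Gbp4, Gbp6, Gbp9 and Gbp10 were transcribed can therefore not be read from these counts, and no comparison is given for them. Gbp9 and Gbp4 cover 49.4% of the span of Gbp8. Gm43302 had 749 UMIs and Gbp11, the neighbouring gene free of overlap, had 1338. Of the 58-base windows of their transcripts, 81.9% for Gbp10 and 69.6% for Gbp6 also occurred in another gene, but 6.02% for Gbp9 and 5.79% for Gbp4. Among the counted genes this share was 99.8% for Gm43302, 13.7% for Gbp8, 12.2% for Gbp7, 3.08% for Gbp3, 1.63% for Gbp2 and 1.16% for Gbp5, so the values of Gm43302 are uncertain.

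Depth differed between the fractions. NeuN- wells held 20962 to 301445 UMIs (median 110247.5) and NeuN+ wells 277113 to 1684374 (median 1064222), so levels are given as CPM, the UMIs of a gene scaled by the total UMIs of the well, and 1 UMI is worth more CPM in a NeuN- well. The labels call all 84 wells NeuN+, and the fraction of a well was taken from the study's well list by barcode. A figure legend of the study gives unequal numbers of wells for the fractions, unlike the equal numbers used here. Over all wells the summed markers of oligodendrocytes, microglia and endothelial cells were, in NeuN+ wells, 5.48%, 13.4% and 12.6% of their level in NeuN- wells, those of astrocytes 39.9%, and those of oligodendrocyte precursors (OPC) and mural cells 89.8% and 107.5%, so the last 2 lists did not separate the fractions, while summed neuronal markers in NeuN- wells were 0.109 times their NeuN+ level. The study used fewer mice than wells for each treatment and time, and the labels do not say which wells share a mouse, so n counts wells, and p-values over wells are too small as statements about mice. Saline wells of 6 and 24 h were mixed by sex-linked genes, so sex was not balanced between IFN-γ and saline at these times. In NeuN+ wells Y-linked genes summed to 4.30 to 9.99 CPM after IFN-γ and 151 to 224 CPM in saline at 6 h. At 24 h these sums were 849 to 961 and 15.3 to 869 CPM. The part of sex in the Gbp differences between treatments was not tested. Sex-linked genes also placed IFN-γ wells of 6 and 48 h with 1 sex and those of 24 and 72 h with the other. Time and sex of the mice therefore cannot be told apart. In sorted wells, fewer cells of a type and less RNA per cell cannot be told apart either.

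Within 6 h of IFN-γ, transcripts of Gbp2, Gbp3, Gbp5 and Gbp7 rose from saline means of at most 37.4 CPM to means of 361 to 685 CPM in NeuN- wells. Gbp2, which coats parasite and bacterial vacuoles, stood at 470 CPM in the lowest IFN-γ well, 663 at the median and 811 in the highest, a mean of 641 ± 115 (SD, n = 6), and 3 of 4 saline wells were at 0 with the other at 17.1. Gbp5, a promoter of inflammasome assembly, ranged from 239 to 520 CPM with a median of 356, against 3 saline wells at 0 and 1 at 14.5. Gbp7, which is linked to oxidative and autophagic defence, ranged from 627 to 716 CPM with a median of 699. Gbp7 was the only member with UMIs in all 4 saline wells, at 17.1 to 69.97 CPM, and its mean rose 18.3-fold. Gbp3 ranged from 232 to 716 CPM with a median of 311 against 0 to 21.8 CPM in saline wells, a 28.9-fold rise, and its top well was the shallowest of the fraction. Gbp8 ranged from 37.1 to 102 CPM with a median of 67.7 against 0 to 17.1 CPM. For each of these 5 genes the lowest of the 6 IFN-γ wells exceeded the highest of the 4 saline wells. The share of all genes without such an overlap is not given, here or in later comparisons, so non-overlap only describes these wells.

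The difference was tested with edgeR's quasi-likelihood test over all genes that passed a filter on low counts, and a gene was called higher where its log2 fold change was above 1 and its Benjamini-Hochberg adjusted p below 0.01. At 6 h in NeuN- wells the filter kept 4 members and all 4 were called higher, in a comparison in which 7.86% of all genes tested were. The log2 fold changes were 6.81 ± 0.37 (SE) for Gbp2 (adjusted p = 2.31e-17), 6.13 ± 0.43 for Gbp5 (adjusted p = 2.165e-14), 4.45 ± 0.39 for Gbp3 (adjusted p = 9.9e-12) and 4.12 ± 0.22 for Gbp7 (adjusted p = 2.31e-17). A gene that is near 0 in saline wells can pass such a filter only through its IFN-γ wells, so the share of tested members that were called says little by itself, here and at the other times. Gbp8 did not pass the filter at 6 h. Oligodendrocyte markers summed to 4866 to 6348 CPM in these IFN-γ wells, below all NeuN- saline wells of the series (lowest 8645), and microglial markers to a mean of 615 CPM against 1351 in saline, while astrocyte and OPC markers (means of 2718 and 2010 CPM) overlapped their saline wells. Their part in the Gbp values was not tested.

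At 24 h the levels in NeuN- wells had diverged. Gbp2 reached its highest levels, at 1174 to 1708 CPM with a median of 1388, and Gbp8 reached 73.6 to 276 CPM with a median of 195. In saline wells Gbp2 was at 0 in 5 of 6 wells and at 11.03 CPM in the other, and Gbp8 was at 0 in 4 of 6 wells and at most 14.7 CPM. Gbp3 (200.9 to 353 CPM, median 243), Gbp5 (270 to 339 CPM, median 314) and Gbp7 (515 to 635 CPM, median 592) stayed near their 6 h ranges. Gbp3 had 0 UMIs in all 6 saline wells, and its mean of 266 ± 58.5 CPM was at least 46.5-fold above the level of 3 counts over those wells. Gbp7 rose 31.1-fold over a saline mean of 18.8 CPM. The IFN-γ wells again lay above the saline wells for all 5 genes. In the test, 4 of 4 members were called higher beside 7.22% of all genes, with log2 fold changes of 8.83 ± 0.32 for Gbp2 (adjusted p = 1.786e-18), 5.43 ± 0.37 for Gbp5 (adjusted p = 1.106e-12) and 4.92 ± 0.26 for Gbp7 (adjusted p = 3.909e-15). The fitted value for Gbp3 rests on saline wells at 0 and is no measure of size. Oligodendrocyte markers were lower still in these IFN-γ wells, at 2873 to 3548 CPM. Astrocyte markers were higher, at 5653 to 6978 CPM against 1847 to 4402 CPM in saline wells of 24 h, and OPC markers too, at 3636 to 4469 CPM against 969 to 2829 CPM, neither with an overlap. Endothelial markers had a mean of 262 CPM against 110 CPM and microglial markers 1399 against 1276 CPM, with overlapping wells. The part of these lists in the Gbp values was not tested.

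By 48 and 72 h the NeuN- levels had fallen, and part of the rise remained. Gbp7 stood at 137 to 214 CPM (median 152) at 48 h and at 74.4 to 132 CPM (median 97.7) at 72 h, above saline wells that did not exceed 10.4 and 14.4 CPM. Gbp2 stood at 34.1 to 163 CPM (median 97.4) and then at 28.6 to 72.9 CPM (median 59.9), against saline maxima of 12.5 and 18.2 CPM. Gbp3 stood at 34.5 to 113 CPM (median 67.5) and then at 36.3 to 76.3 CPM (median 48.8), against saline maxima of 9.83 and 9.08 CPM. These 3 genes kept all IFN-γ wells above all saline wells at both times, whereas the ranges of Gbp5 (9.56 to 38.6 CPM, then 9.14 to 36.3 CPM) and Gbp8 (6.90 to 70.1 CPM, then 0 to 43.8 CPM) overlapped those of saline wells. At 48 h, 2 of 2 tested members were called higher beside 1.23% of all genes: Gbp7 by a log2 fold change of 5.03 ± 0.50 (adjusted p = 2.056e-09) and Gbp2 by 3.86 ± 0.56 (adjusted p = 4.604e-06). Gbp2 did not pass the filter when the IFN-γ well 1, 3, 4 or 6 was left out and so lost its call; in the 11 fits in which it was tested its log2 fold change was 3.58 to 4.15 and its adjusted p at most 0.000661. At 72 h the 1 tested member, Gbp7, was called higher by 3.93 ± 0.55 (adjusted p = 1.558e-06) beside 0.754% of all genes.

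**Figure D2:**
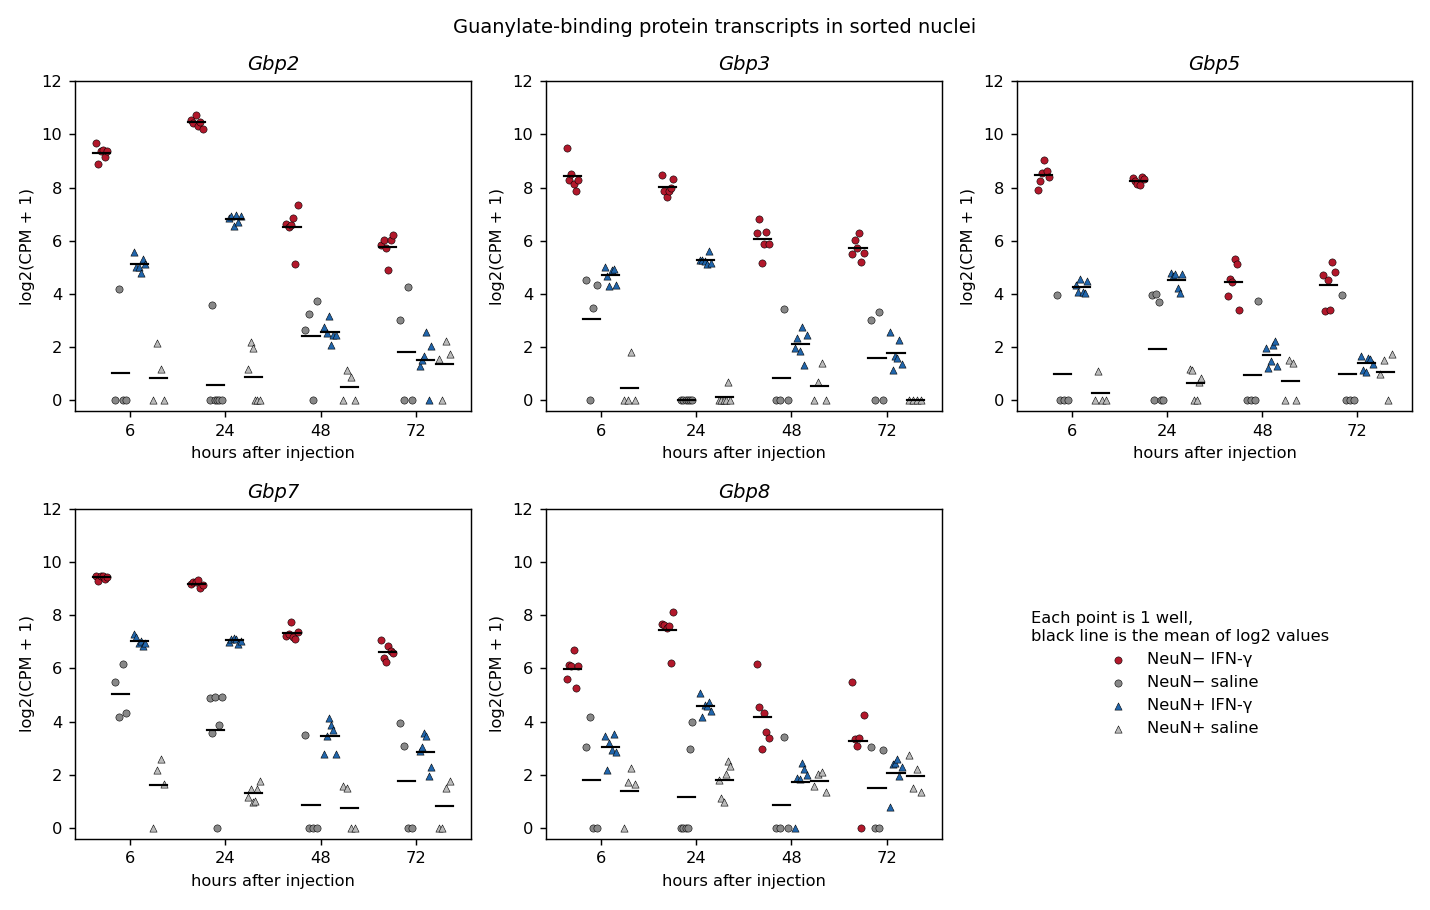
Level of Gbp2, Gbp3, Gbp5, Gbp7 and Gbp8 in each well as log2(CPM + 1), by hours after injection; circles are NeuN- wells and triangles NeuN+ wells, coloured for IFN-γ and grey for saline, and black lines are means of the log2 values. At 24 h, in both fractions, no IFN-γ well overlaps the saline wells of its fraction for any of the 5 genes, and by 72 h in NeuN+ wells this holds for Gbp3 and Gbp7 only.

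NeuN+ wells rose from a lower base to lower levels. At 6 h Gbp7 reached 115 to 157 CPM (median 127) from a saline mean of 2.68 CPM, a 49.2-fold rise, and Gbp2 reached 26.8 to 46.6 CPM (median 32.5) from 1.19 CPM, a 29.1-fold rise. Gbp3 reached 18.7 to 31.3 CPM with 3 of 4 saline wells at 0 and the other at 2.52. Gbp5 reached 15.4 to 22.8 CPM, likewise with 3 of 4 saline wells at 0 and the other at 1.17. In these 4 genes every IFN-γ well exceeded every saline well. Gbp8, at 3.59 to 10.7 CPM, overlapped its saline wells (0 to 3.79 CPM) and rose 3.64-fold. The filter kept the first 4 genes, and 4 of 4 were called higher beside 1.08% of all genes, with log2 fold changes of 5.30 ± 0.24 for Gbp7 (adjusted p = 3.82e-17), 5.25 ± 0.59 for Gbp5 (adjusted p = 9.915e-08), 4.89 ± 0.54 for Gbp3 (adjusted p = 5.514e-08) and 4.48 ± 0.43 for Gbp2 (adjusted p = 3.272e-09).

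At 24 h in NeuN+ wells Gbp2 reached 93.9 to 125 CPM (median 117), an 87.5-fold rise over a saline mean of 1.29 CPM, and Gbp7 reached 120 to 139 CPM (median 134), an 85.6-fold rise over 1.54 CPM. Gbp3 reached 33.5 to 47.7 CPM (median 37.3) while 5 of 6 saline wells were at 0. Gbp5 reached 15.6 to 26.6 CPM, 35.4-fold above saline. Gbp8 reached 17.3 to 32.8 CPM, 8.64-fold above a saline mean of 2.76 CPM that came from all 6 wells. The IFN-γ and saline wells did not overlap for any of the 5. All 5 passed the filter and were called higher, beside 1.47% of all genes, with log2 fold changes of 7.31 ± 0.38 for Gbp3 (adjusted p = 9.048e-14), 6.31 ± 0.27 for Gbp2 (adjusted p = 1.939e-15), 6.30 ± 0.16 for Gbp7 (adjusted p = 5.133e-20), 4.88 ± 0.36 for Gbp5 (adjusted p = 1.314e-10) and 3.03 ± 0.29 for Gbp8 (adjusted p = 2.638e-08).

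Little of this was left in NeuN+ wells by 48 and 72 h. Gbp7 kept the largest remainder, at 5.81 to 16.7 CPM at 48 h, 11.1-fold above saline, and at 2.87 to 11.05 CPM (median 6.91) at 72 h, 6.59-fold above saline. Its lowest IFN-γ wells exceeded its highest saline wells, which reached 1.99 and 2.38 CPM. Gbp2, at 3.22 to 7.91 CPM at 48 h, was still above its saline wells (at most 1.23 CPM). At 72 h Gbp2 stood at 0 to 5.00 CPM against 0 to 3.68 CPM in saline, a ratio of the means of 1.14. Gbp3 had 0 UMIs in the 4 saline wells of 72 h and a mean of 2.64 ± 1.46 CPM after IFN-γ, at least 3.45-fold above the level of 3 counts. Gbp5 and Gbp8 at 72 h were 1.28 and 1.10 times their saline means. At 48 h the 1 tested member, Gbp7, was called higher by a log2 fold change of 3.41 ± 0.54 (adjusted p = 0.001015) beside 0.15% of all genes, a call that was lost without IFN-γ well 2, 3, 4 or 5 because the gene then did not pass the filter. In the 11 fits in which it was tested, its log2 fold change was 2.95 to 4.37 and its adjusted p at most 0.00855. At 72 h no member passed edgeR's filter, while 0.351% of all genes were called. DESeq2, run without that filter but with its own default filtering on mean count, called 0 members at 72 h, with 2 at an unadjusted p below 0.05. edgeR with no filter on low counts called 1.

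Summed over the 9 genes, the mean level in NeuN- wells was 33.1, 88.4, 21.9 and 10.7 times that of saline at 6, 24, 48 and 72 h, and in NeuN+ wells 31.7, 52.0, 4.51 and 2.25 times. The sums after IFN-γ were 2120, 2747, 376 and 245 CPM in NeuN- wells and 218, 329, 24.5 and 17.1 CPM in NeuN+ wells.

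Gbp2 and Gbp8 were called higher at 24 h than at 6 h in both fractions. Gbp3, Gbp5 and Gbp7 were called in neither. No time between 6 and 24 h or 24 and 48 h was sampled, so the peak cannot be placed. By sex-linked genes, the IFN-γ wells of 6 and 24 h came from mice of different sex. In NeuN- IFN-γ wells oligodendrocyte markers had means of 5766 and 3267 CPM at 6 and 24 h, and astrocyte markers 2718 and 6385 CPM. Their part in these differences was not tested. Gbp2 rose between 6 and 24 h in NeuN- wells by a log2 difference of 1.18 ± 0.11 (adjusted p = 3.191e-11) and in NeuN+ wells by 1.70 ± 0.11 (adjusted p = 3.155e-14), that is, 2.19-fold and 3.25-fold by the means. Gbp8 rose by 1.49 ± 0.23 (adjusted p = 2.428e-06) and by 1.66 ± 0.24 (adjusted p = 2.812e-06), that is, 2.87-fold and 3.16-fold. Gbp3, Gbp5 and Gbp7 in NeuN- wells differed by -0.18, -0.31 and -0.21 on the log2 scale between these times and none was called. In NeuN+ wells Gbp5 and Gbp7 differed by 0.30 and 0.02, and Gbp3 by 0.62, with an adjusted p of 0.005404 but below the limit of 1 on the log2 scale. Thus 2 of 5 members were called between 6 and 24 h in each fraction, both higher at 24 h, beside 5.74% of all genes called higher in NeuN- wells and 1.15% in NeuN+ wells (8.79% and 1.57% in either direction). Gbp2 went from 29.9% to 50.1% of the Gbp UMIs of NeuN- IFN-γ wells and from 15.99% to 34.1% of those of NeuN+ wells.

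Between 24 and 72 h every tested member fell. In NeuN- wells 4 of 4 were called lower, beside 5.96% of all genes called lower (11.7% in either direction), with log2 differences of -4.52 for Gbp2, -3.68 for Gbp5, -2.50 for Gbp7 and -2.38 for Gbp3. In NeuN+ wells 5 of 5 were called lower, beside 1.34% of all genes called lower (1.81% in either direction), with differences of -5.61 for Gbp2, -4.28 for Gbp7, -3.81 for Gbp3, -3.68 for Gbp5 and -2.72 for Gbp8. Expressed by the means, the 72 h level of NeuN- wells was 4.01% of the 24 h level for Gbp2, 7.05% for Gbp5, 7.84% for Gbp8, 17.1% for Gbp7 and 19.9% for Gbp3. In NeuN+ wells these values were 2.02% for Gbp2, 5.28% for Gbp7, 6.95% for Gbp3, 7.33% for Gbp5 and 14.9% for Gbp8. Gbp2 thus had the largest proportional fall of the 5 genes in each fraction. These percentages also depend on how far a gene stood above saline. In NeuN+ wells at 72 h Gbp2, Gbp5 and Gbp8 were at 1.14, 1.28 and 1.10 times their saline means, and Gbp7 at 6.59 times.

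After IFN-γ the Gbp genes were higher in NeuN- than in NeuN+ wells at every time. At 6 h the 6 wells of each fraction did not overlap for any of the 5 genes, and the means were in a ratio of 19.7 for Gbp5, 18.4 for Gbp2, 14.5 for Gbp3, 8.66 for Gbp8 and 5.20 for Gbp7. In the test, 5 of 5 members were called higher in NeuN- wells, beside 15.2% of all genes, with log2 differences in level of 4.36 ± 0.16 for Gbp5, 4.13 ± 0.12 for Gbp2, 3.63 ± 0.17 for Gbp3, 3.21 ± 0.31 for Gbp8 and 2.35 ± 0.10 for Gbp7. At 24 h 5 of 5 were again called, beside 13.5% of all genes, with differences of 3.74 ± 0.15 for Gbp5, 3.58 ± 0.09 for Gbp2, 3.05 ± 0.19 for Gbp8, 2.83 ± 0.15 for Gbp3 and 2.11 ± 0.09 for Gbp7. At 48 h 1 of 1 tested member was called (Gbp7, 3.88 ± 0.22) beside 16% of all genes. At 72 h 3 of 3 were called (Gbp2 by 4.60 ± 0.38, Gbp3 by 4.19 ± 0.36 and Gbp7 by 3.84 ± 0.27) beside 15.2% of all genes. Across the 20 pairs of gene and time the only overlap between the fractions was for Gbp8 at 72 h.

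Of the 5 genes, Gbp7 had the highest NeuN+ level relative to NeuN- wells at 6 and 24 h. At 6 and 24 h its NeuN+ level was 19.2% and 22.6% of its NeuN- level, whereas Gbp2 was at 5.42% and 8.04%, Gbp3 at 6.91% and 14.3%, Gbp5 at 5.09% and 7.40% and Gbp8 at 11.6% and 12.7%. Of the Gbp UMIs in NeuN+ IFN-γ wells, Gbp7 held 60.8% (939 of 1545) at 6 h, against 32.9% (502 of 1528) in NeuN- wells. At 48 and 72 h, by contrast, the NeuN+ level of Gbp7 was 6.64% and 6.97% of the NeuN- level, below that of Gbp8 (11.8% and 24.1%). For comparison, in the same IFN-γ wells at 6 and 24 h the oligodendrocyte markers in NeuN+ wells were at 3.89% and 11.1% of their NeuN- level, the microglial markers at 21.6% and 15.4%, the endothelial markers at 23.4% and 9.76% and the astrocyte markers at 38.7% and 24.5%. Over all times, oligodendrocyte markers summed to 194 to 848 CPM in NeuN+ IFN-γ wells and 279 to 544 CPM in NeuN+ saline wells. Microglial markers summed to 107 to 254 CPM and 108 to 176 CPM, and none of the 10 oligodendrocyte markers was at 0 over the wells. Within times, oligodendrocyte markers were lower after IFN-γ at 6 h (194 to 255 against 353 to 479 CPM) without overlap. At 72 h they were higher (728 to 848 against 423 to 517 CPM), also without overlap. Microglial markers were higher at 24 h (199 to 254 against 113 to 176 CPM) without overlap. At the other times IFN-γ and saline wells overlapped for both lists. At 24 h the NeuN+ levels of Gbp2 and Gbp5 relative to NeuN- wells were below those of all 4 lists, and those of Gbp3, Gbp7 and Gbp8 lay between the lowest and the highest list. How far glial nuclei in the NeuN+ gate contributed to the Gbp values was not tested.

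Whether the fold change differed between the fractions was tested as an interaction of fraction and treatment. edgeR called 0 members at each of the 4 times (tested: 5, 5, 3 and 3), with 0, 2, 0 and 1 at an unadjusted p below 0.05, and DESeq2 called 0, with 2, 3, 1 and 1. Beside this, 2.53%, 4.22%, 0.128% and 0.347% of all genes had a called interaction. The point estimates pointed in different directions. At 24 h the fold change of Gbp8 was larger in NeuN- wells by 2.63 on the log2 scale (95% interval 0.760 to 4.50, adjusted p = 0.05726) and that of Gbp2 by 3.13 (0.607 to 5.66, adjusted p = 0.1063). That of Gbp7 was smaller in NeuN- wells by 1.16 on the log2 scale (-2.32 to 0.00303, adjusted p = 0.217), and at 6 h by 1.06 (-2.12 to 0.00787, adjusted p = 0.2364). The intervals are wide because saline wells held few Gbp UMIs, and they do not show that the fractions responded alike. The study's own DESeq2 interaction analysis differs from these calls. It placed Gbp2 among genes raised in both fractions with a larger effect in glia. Why the calls for Gbp2 differ was not tested.

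**Figure D3:**
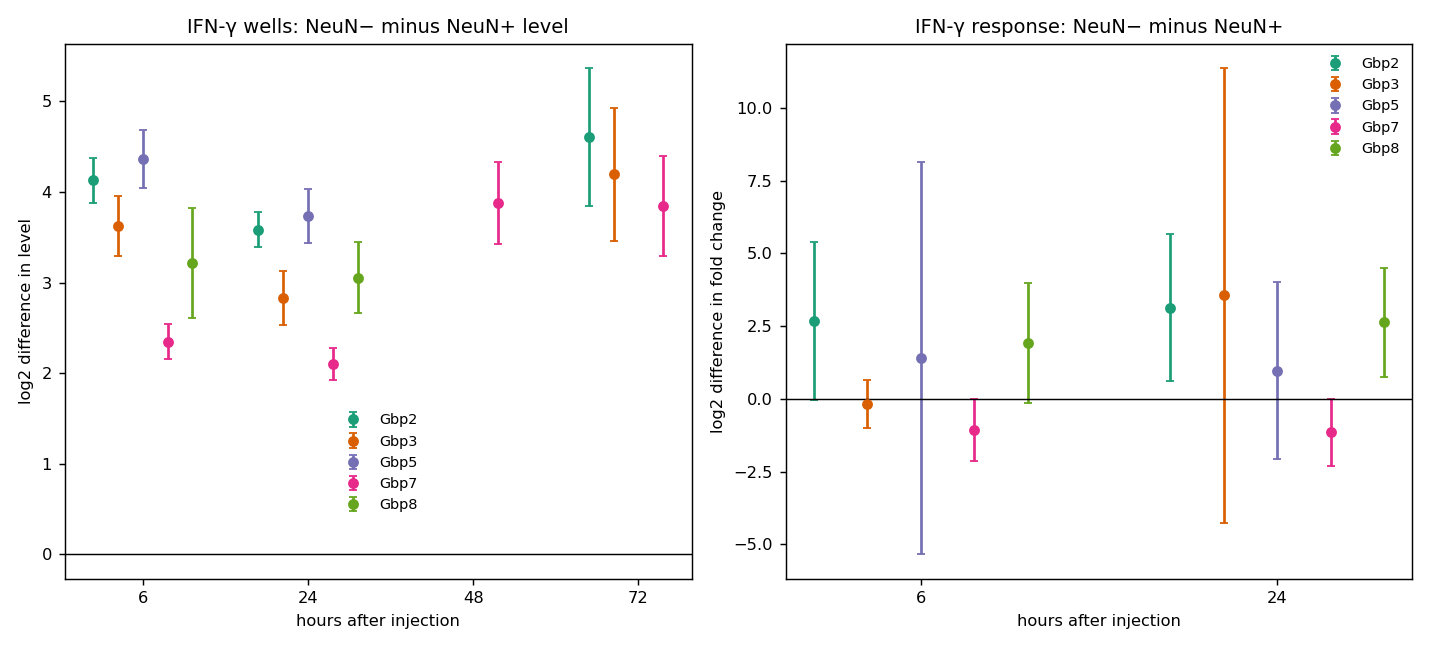
Left, log2 difference in level between NeuN- and NeuN+ IFN-γ wells for the tested genes at each time (all above 0, smallest for Gbp7 at 6 and 24 h). Right, log2 difference in fold change (the interaction of fraction and treatment) at 6 and 24 h; bars are 95% intervals, and the Gbp7 points lie below 0 while the Gbp2 and Gbp8 points lie above it.

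In single nuclei at 48 h most Gbp UMIs of the IFN-γ mice were in oligodendrocyte-like nuclei, the largest glial class. Nuclei were grouped by Leiden clustering after the Gbp and other interferon genes had been taken out of the genes used, and clusters were named from marker lists. No barcode was shared between the 3 libraries. The study had already removed doublets by their glial marker expression, and no further doublet caller was run. Oligodendrocyte-like nuclei held 75.7% and 75.8% of the Gbp UMIs of the 2 IFN-γ mice (of 1035 and 702 UMIs), while holding 9.21% and 8.998% of all UMIs. Microglia-like nuclei held 4.44% and 10.1% of the Gbp UMIs from 0.668% and 1.45% of all UMIs. Astrocyte-like nuclei held 6.86% and 2.99% from 2.21% and 1.45%. In each of these glial classes the share of Gbp UMIs thus exceeded the share of all UMIs in both mice. Nuclei of clusters left unnamed held 7.83% and 3.13% of the Gbp UMIs (81 and 22 UMIs) from 44.5% and 32.1% of all UMIs. They numbered 212 in the saline mouse and 847 and 254 in the IFN-γ mice. Their median UMIs (17096, 14688 and 17169) were above those of the glial classes and within the range of the neuron classes of each mouse. The study placed all retained nuclei in named neuronal or glial types, so the neuron classes here leave out part of its neurons. The sort aimed at a majority of NeuN+ nuclei, which sets the share of each class but not its level in CPM.

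**Figure D4:**
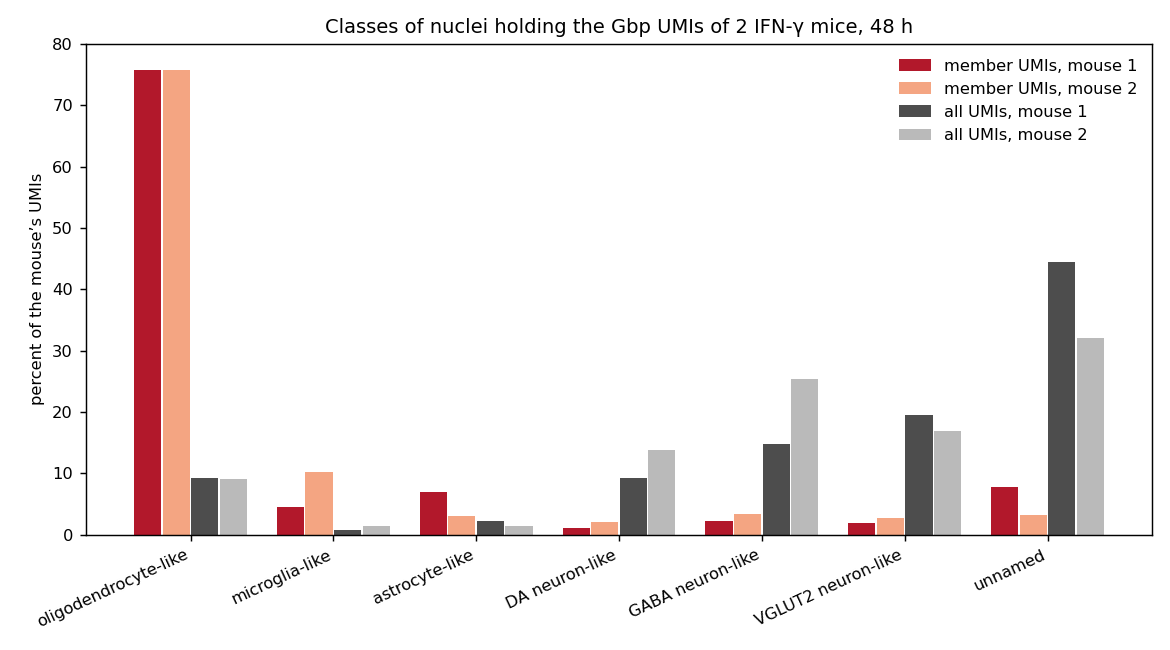
Percent of Gbp UMIs (red shades) and of all UMIs (grey shades) that fell in each class of nuclei, for each of the 2 IFN-γ mice at 48 h. Oligodendrocyte-like nuclei hold about 76% of the Gbp UMIs and about 9% of all UMIs in both mice.

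The 191 oligodendrocyte-like nuclei of the saline mouse held 0 UMIs of all 9 genes. In the 744 and 306 such nuclei of the IFN-γ mice, Gbp7 had 375 and 249 UMIs (139 and 172 CPM), at least 32.1- and 39.9-fold above the level of 3 counts in the saline mouse. Gbp2 had 200 and 135 UMIs (74.1 and 93.5 CPM; at least 17.1- and 21.6-fold), Gbp3 had 158 and 106 (58.5 and 73.4 CPM; at least 13.5- and 17.0-fold), and Gbp5 had 39 and 25 (14.4 and 17.3 CPM; at least 3.34- and 4.01-fold). Gbp8 had 12 and 17 UMIs, at least 1.03- and 2.73-fold above. Both IFN-γ mice were thus above the saline mouse for all 5 genes. In edgeR's test on UMIs summed per mouse, with a call at a log2 fold change above 3 in the fit and in each IFN-γ mouse and an adjusted p below 0.01, 4 of 5 members were called higher beside 0.593% of all genes. The adjusted p was 4.342e-38 for Gbp7, 2.298e-22 for Gbp2, 1.363e-17 for Gbp3 and 0.001009 for Gbp5, and 0.1031 for Gbp8. DESeq2 called 2 of 5, Gbp2 and Gbp7. With 1 saline mouse, the test assumes that saline mice vary as the IFN-γ mice do.

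Thinned to 2000 UMIs per nucleus, 32.5% and 34.3% of oligodendrocyte-like nuclei of the IFN-γ mice held a UMI of any member. These were 230 of 707 and 103 of 300 nuclei, against 0 of 182 in the saline mouse. The exact binomial interval for the saline share reached 2.01%. It treats the nuclei of 1 mouse as independent and does not cover differences between saline mice. Without thinning the shares in the IFN-γ mice were 41.3% and 50.7%. In the neuron classes of all mice the thinned shares were 0% to 3.06%, and the shares without thinning 3.33% to 11.2%. Neuronal nuclei held more UMIs each, so thinning removed more of theirs. The Gbp UMIs were uneven among the oligodendrocyte-like clusters. A cluster of 470 and 187 nuclei of the IFN-γ mice and 1 saline nucleus, with Neat1, Iigp1, Il33, Tgtp2 and Irgm2 among its leading genes, held all 200 Gbp2 UMIs of the first mouse and 134 of 135 of the second, and 453 and 560 CPM of Gbp transcripts. Another, of 222 and 106 IFN-γ nuclei and 72 saline nuclei, held 54.9 and 109 CPM, nearly all Gbp3 and Gbp7. The last held most saline nuclei (118, against 52 and 13), so that different clusters hold most of the class in saline and IFN-γ mice. This last cluster had 1 and 5 Gbp UMIs in the IFN-γ mice, all of Gbp7, which are 6.44 and 134 CPM. Its value in the second mouse, from 5 UMIs, was thus above the 109 CPM of the cluster before it. Iigp1, Tgtp2 and Irgm2 are interferon-inducible GTPases themselves, and the clusters differ by the response that the members are part of.

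Microglia-like nuclei had Gbp transcripts in the saline mouse as well. In 31 saline nuclei Gbp7 had 8 UMIs (95.3 CPM, 95% Poisson interval 41.1 to 188), against 6 and 14 UMIs (30.6 and 60.3 CPM) in the 49 and 54 nuclei of the IFN-γ mice, a log2 fold change of -1.05 ± 0.70 (adjusted p = 0.5022). Gbp5 had 1 UMI in the saline mouse and 16 and 19 in the IFN-γ mice (81.7 and 81.8 CPM). Gbp2 had 0, 9 and 11 UMIs, Gbp3 had 1, 9 and 12, and Gbp8 had 0, 6 and 15, so these 4 genes were higher in both IFN-γ mice, unlike Gbp7. None of the 5 was called by edgeR, beside 0.77% of all genes, with 3 at an unadjusted p below 0.05; DESeq2 called 0, with 0 at that level. Thinned shares of nuclei with any member were 23.1% (6 of 26) in the saline mouse and 34.8% and 26.9% in the IFN-γ mice. These are few nuclei, and the cluster scored nearly as high on monocyte and border macrophage markers as on microglial markers. That score compares each marker across clusters and not its level. By level, microglial markers summed to 19325 CPM in the saline mouse and 15565 and 16260 CPM in the IFN-γ mice. The monocyte and border macrophage markers summed to 941, 383 and 887 CPM.

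Astrocyte-like nuclei (21 saline, 135 and 37 IFN-γ) showed 0 UMIs of Gbp2, Gbp3, Gbp5 and Gbp8 and 2 of Gbp7 in the saline mouse. In the IFN-γ mice Gbp7 had 32 and 6 UMIs (49.5 and 25.8 CPM), Gbp3 had 20 and 8 (30.9 and 34.4 CPM), Gbp5 had 10 and 1, Gbp2 had 5 and 3, and Gbp8 had 4 and 3. Of 3 members tested edgeR called 0, beside 0.0844% of all genes, with 1 at an unadjusted p below 0.05 (Gbp3, adjusted p = 0.5152); DESeq2 called 0 and had 0 at that level. The saline interval for a gene at 0 UMIs reached 33.8 CPM in this class.

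In the named neuron classes at 48 h Gbp levels were at or below a few CPM. Neurons in the unnamed clusters are not part of these values or of the tests that follow. Gbp7, the most frequent member there, had 8 UMIs in dopamine (DA) neuron-like nuclei of the saline mouse and 4 and 7 in those of the IFN-γ mice (2.01, 1.48 and 3.17 CPM). In GABA neuron-like nuclei it had 0, 7 and 9 UMIs (0, 1.62 and 2.21 CPM), with a p of 0.001053 in edgeR before adjustment and 0.1598 after it. In VGLUT2 (glutamatergic) neuron-like nuclei it had 1, 11 and 8 UMIs (0.404, 1.93 and 2.95 CPM). The Gbp7 level after IFN-γ was thus higher than in saline in both mice for GABA and VGLUT2 neuron-like nuclei and in 1 of 2 mice for DA neuron-like nuclei, without passing the test in any. Counts called were 0 of 2 in DA (beside 0.0504% of all genes), 0 of 3 in GABA (0.0698%) and 0 of 2 in VGLUT2 neuron-like nuclei (0.0593%), with 0, 1 and 0 at an unadjusted p below 0.05 in edgeR, and DESeq2 called 0 in each, with 0, 1 and 0. Oligodendrocyte markers, at 16323 to 19906 CPM in oligodendrocyte-like nuclei, were also higher in both IFN-γ mice than in the saline mouse in each neuron class. They summed to 29.9 CPM in saline and 37.8 and 39.5 CPM after IFN-γ in DA, to 36.5, 53.2 and 57.97 CPM in GABA and to 36.7, 62.4 and 67.5 CPM in VGLUT2 neuron-like nuclei, and their part in the neuronal Gbp values was not tested.

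Within the 2 IFN-γ mice the glial classes were compared with the mean of the 3 neuron classes, with the mouse as a term. In oligodendrocyte-like nuclei 5 of 5 members were called higher, beside 13.2% of all genes, with log2 differences in level of 8.78 for Gbp2, 6.20 for Gbp7, 3.87 for Gbp5 and 2.89 for Gbp8, and with Gbp3 between Gbp2 and Gbp7. In microglia-like nuclei 5 of 5 were called, beside 11.5% of all genes, with differences of 7.14 for Gbp2, 5.77 for Gbp3, 5.43 for Gbp5, 4.72 for Gbp8 and 3.65 for Gbp7. In astrocyte-like nuclei 5 of 5 were called, beside 9.59% of all genes, with differences of 5.80 for Gbp3, 5.44 for Gbp2, 4.17 for Gbp7, 3.33 for Gbp5 and 2.92 for Gbp8. Gbp5 and Gbp8 had their highest CPM in microglia-like nuclei, and Gbp2, Gbp3 and Gbp7 in oligodendrocyte-like nuclei, in both IFN-γ mice, a difference between glial classes that was not tested.

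**Figure D5:**
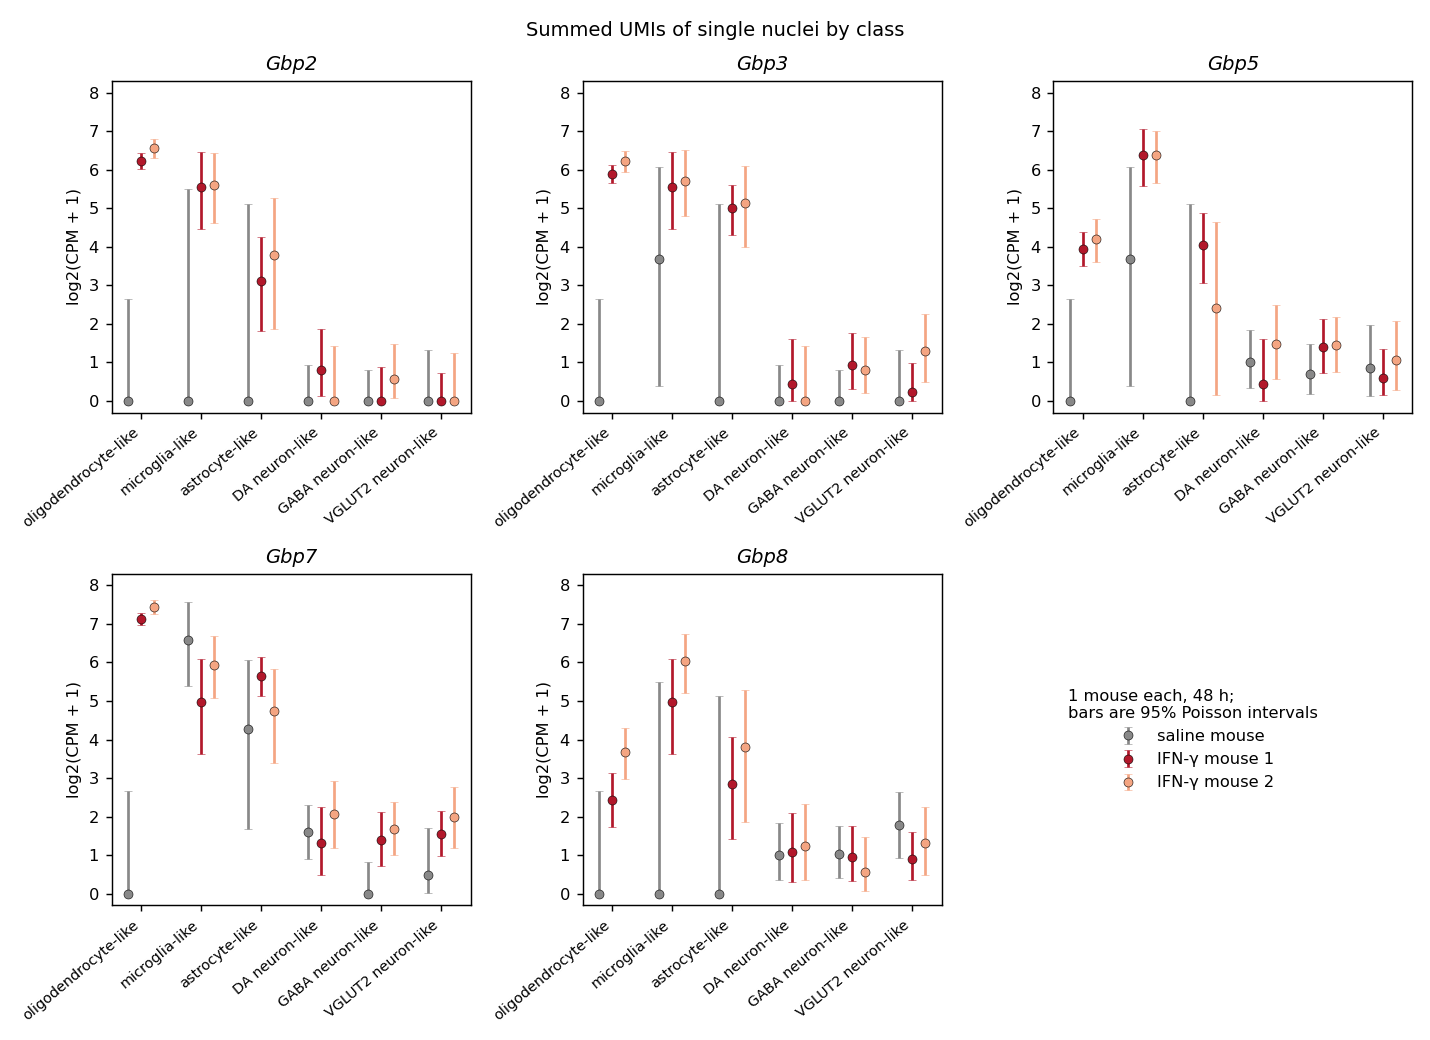
Level of the 5 measured genes as log2(CPM + 1) in 6 classes of nuclei for the saline mouse (grey) and the 2 IFN-γ mice (red shades) at 48 h; points are summed UMIs of 1 mouse and bars are 95% Poisson intervals, which cover counting error only. In oligodendrocyte-like nuclei both IFN-γ mice lie above a saline mouse at 0 for all 5 genes, whereas Gbp7 in microglia-like nuclei is highest in the saline mouse.

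The genes around the Gbp family in the IFN-γ pathway were followed as lists. Of the 18 immunity-related (IRG) and other interferon-inducible GTPases, a family that works with the Gbp proteins at pathogen vacuoles, 8 of 8 tested, 6 of 6, 6 of 6 and 6 of 6 were called higher in NeuN- wells at 6, 24, 48 and 72 h, and 8 of 8, 9 of 9, 2 of 3 and 2 of 2 in NeuN+ wells. At 24 h Iigp1, a GTPase that loads onto parasite vacuoles, rose by a log2 fold change of 6.63 ± 0.28 in NeuN- and 8.36 ± 0.25 in NeuN+ wells, and Irgm1, a regulator of the family, by 5.53 ± 0.38 and 4.19 ± 0.22. Of 17 genes of IFN-γ receptor signalling, 7 of 8, 5 of 6, 1 of 4 and 1 of 5 were called higher in NeuN- wells and 5 of 10, 5 of 10, 0 of 9 and 0 of 7 in NeuN+ wells, where edgeR had 1 and 3 at an unadjusted p below 0.05 at 48 and 72 h and DESeq2 called 0 with 1 and 2. At 24 h Irf1 rose by 6.25 ± 0.62 in NeuN- and 5.94 ± 0.37 in NeuN+ wells. At 48 and 72 h in NeuN- wells the called signalling gene was Stat2, which DESeq2 did not call at 72 h.

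Few genes that act downstream of or on Gbp proteins could be tested. Of 13 genes of inflammasomes and cell death, edgeR called 3 of 3 tested in NeuN- wells at 6 h (Casp4, the caspase that Gbp proteins help to activate, and the necroptosis genes Ripk1 and Mlkl) and 1 of 2 in NeuN+ wells (Ripk1), and 0 at later times, with at most 2 tested and at most 1 at an unadjusted p below 0.05. DESeq2, which tests more of these genes, called 1 in NeuN- and 2 in NeuN+ wells at 24 h and 0 at 48 and 72 h, with 1 to 6 at an unadjusted p below 0.05 except for 0 in NeuN+ wells at 48 h. Of 18 genes of Gbp regulation and vacuole targeting, 1 of 2, 1 of 2, 1 of 2 and 0 of 3 were called higher in NeuN- wells and 1 of 13, 1 of 13, 0 of 13 and 0 of 12 in NeuN+ wells. Where edgeR called 0, it had 1 (NeuN-, 72 h), 1 (NeuN+, 48 h) and 2 (NeuN+, 72 h) at an unadjusted p below 0.05, and DESeq2 called 0, with 1, 1 and 0. At 24 h the called gene was in both fractions Rnf213, a ubiquitin ligase that targets pathogen vacuoles, by 3.58 ± 0.19 and 3.60 ± 0.09. Of 4 further Gbp genes in the table, Gm43302 and Gbp11 were called higher at 6 h in both fractions and Gbp11 at 24 h in both, by 3.28 ± 0.25 in NeuN- and 4.39 ± 0.30 in NeuN+ wells; Gm43302 was called at 24 h in NeuN+ wells only, where alone it was tested, by 5.45 ± 0.38. No gene of these 5 lists was called lower in either fraction. The counts stand for the genes with enough reads to be tested, and the shares of all genes called are those given for the members above.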

How the data were processed

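Mouse ventral midbrain nuclei were profiled 6 to 72 h after IFN-γ or saline. Per the labels and methods, the authors aligned reads with STAR to GRCm38 and collapsed them by UMI, and the deposited tables hold raw UMI counts per gene in 84 wells and 4699 nuclei (0 columns of per-sample values were left unused). Groups came from the labels, and fractions from the study's well list. The members and gene lists were chosen with earlier results of these data known. All 9 members are named; other genes are named by list or as the 5 most like the members.

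Wells were compared with edgeR 4.0.16 (filterByExpr, TMM, quasi-likelihood F test, R 4.3.3) over all genes, one contrast per fraction and time, then by interaction, fraction and time. DESeq2 1.42.0, other normalizations, no filter, pooled saline wells, 1 fit of all wells, thinned NeuN+ counts and leaving out each library were the alternatives. Standard errors were derived from the p-value. Nuclei were clustered without interferon genes (2000 variable genes, 30 components, Leiden resolution 1), named from markers, and summed per mouse and class; a test needed 10 UMIs. Clusters led by other genes or with unclear markers were left unnamed, and the microglia-like name was kept despite a close score for macrophage markers, a choice made after the scores were seen. Poisson and exact binomial (Clopper-Pearson) 95% intervals and the 3-count floor cover counting error only. Scripts were tested on simulated data.

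Annotation came from GENCODE vM21 for GRCm38 (40606 of 48526 identifiers matched with version) and promoters from RefSeq, which matched the chromosome 3 members; chromosome 5 members had no entry.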

Additional observations from a re-analysis of the deposited data

Results flagged for a closer look

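In each of 40 groups of 6 IFN-γ wells, the highest and lowest CPM of a member were checked for a gap that is large against the group's range (Dixon's 95% critical value). Saline wells were not checked. Of the 40 groups, 4 were flagged, and chance flags about 1 in 20 groups. Gbp3 stood at 716 CPM in IFN-γ well 1 of NeuN- nuclei at 6 h, from 15 UMIs of 20962, against 359 CPM in the nearest well. Gbp3 stood at 47.7 CPM in IFN-γ well 5 of NeuN+ nuclei at 24 h, from 46 UMIs, against 37.5 CPM. Gbp7 stood at 214 CPM in IFN-γ well 3 of NeuN- nuclei at 48 h, from 31 UMIs, against 163 CPM. Gbp8 stood at 70.1 CPM in IFN-γ well 1 of NeuN- nuclei at 48 h, from 10 UMIs, against 22.5 CPM. All 4 were the highest wells of their groups, and 3 of them rested on 31 UMIs or fewer.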

How the results depend on the processing

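Of 142 counts of called members recomputed under another setting, 124 stayed within 1.5 times the count given and 18 moved; of 180 recomputed with a library left out, 167 stayed and 13 moved. Values that moved follow.

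With saline wells of all times as controls, the members called in NeuN- wells were 1 at 48 h and 0 at 72 h, and in NeuN+ wells 0 at 48 h, because Gbp2 at 48 h and Gbp7 at the other 2 did not pass the filter among more saline wells; where tested, Gbp7 at 72 h had a log2 fold change of at least 3.51 and an adjusted p of at most 0.000669. With no filter on low counts they were 3 in NeuN- and 1 in NeuN+ wells at 72 h, and in 1 fit of all wells 3 and 2. With NeuN+ counts thinned to the NeuN- median of 110247.5 UMIs, the NeuN+ calls fell to 1 at 6 h (Gbp7), 1 at 24 h (Gbp7) and 0 at 48 h, those between 6 and 24 h to 0, those between 24 and 72 h to 1, and those for NeuN- above NeuN+ at 72 h to 0; by construction these wells hold fewer reads. For NeuN- above NeuN+ wells, DESeq2 and the fit with no filter each called 5 members at 48 h and 5 at 72 h. In oligodendrocyte-like nuclei DESeq2 called 2 (Gbp2 and Gbp7). Except for thinning and the filter, the cause was not tested.

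Leaving out 1 library gave 1 to 2 called members in NeuN- wells at 48 h, 0 to 1 in NeuN+ wells at 48 h, 1 to 2 in microglia-like, 0 to 1 in astrocyte-like and 1 to 1 in GABA neuron-like nuclei. For nuclei, leaving out 1 IFN-γ mouse leaves 1 against 1, so these are counts past the fold limit with no test. No paired analysis was possible because the labels give no replicate numbers that groups share. Few saline UMIs limit every fold change.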

Other observations

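The genes whose mean log2(CPM + 1) over the 16 groups of wells (fraction, treatment and time) was most like that of the summed Gbp members, among 15311 genes with at least 5 CPM in 1 group, were Iigp1 (Pearson r = 0.986), Parp14 (0.980), Parp3 (0.980), Nlrc5 (0.979) and Nmi (0.975). The members themselves had an r with the sum of 0.977 for Gbp7, 0.972 for Gbp3, 0.961 for Gbp5, 0.953 for Gbp2 and 0.907 for Gbp8. Each member is part of that sum, so its r is high in part by construction and not comparable with those of the other genes. The groups share libraries and depth, and these values are a description with no test. Iigp1 stood at a mean of 1302 CPM in NeuN- and 166 CPM in NeuN+ IFN-γ wells at 24 h, and Nlrc5, the activator of class I antigen presentation genes, at 493 and 159 CPM.

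In single nuclei at 48 h, edgeR called the interferon-inducible GTPases other than Gbp higher after IFN-γ for 10 of 12 tested genes in oligodendrocyte-like nuclei (beside 0.593% of all genes), 3 of 8 in astrocyte-like nuclei (F830016B08Rik, Iigp1 and Gm4951; beside 0.0844%) and 2 of 13 in microglia-like nuclei (Tgtp2 and Iigp1; beside 0.77%), where DESeq2 called 7, 0 and 0, with 11, 5 and 4 at an unadjusted p below 0.05. In DA, GABA and VGLUT2 neuron-like nuclei edgeR called 0 of 5, 0 of 4 and 0 of 4 (beside 0.0504%, 0.0698% and 0.0593%), with 3, 1 and 2 at an unadjusted p below 0.05, and DESeq2 called 0 in each, with 0, 0 and 1 at that level. With 1 saline mouse, these tests assume that saline mice vary as the IFN-γ mice do.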
